A study of Mus musculus with 2 samples.

Results

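Genes of the complement system were described in single cells sorted from mouse tumours: C1qa, C1qb and C1qc, C3, Cfb and Cfp, and C3ar1 and C5ar1. They were found by symbol, and all 8 were among the 31054 features of both libraries. The cells were mCherry+, that is, they carried a red fluorescent protein, and came from pooled tumours of adult mice (24 weeks old) and of young mice (4 weeks old), both labelled d7. Each age was 1 library of the 10x Genomics 3′ v2 kit, in which a unique molecular identifier (UMI) marks each captured polyadenylated RNA. The study's title concerns cross-presentation of tumour antigen in young hosts. The tumour line, the strain, the number of mice in a pool and the cells that made mCherry are not named in the labels.

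Complement is a cascade of blood and tissue proteins that coats targets, draws in phagocytes and lyses membranes. C1q, built from the products of C1qa, C1qb and C1qc, opens the classical pathway by binding antibody or dying cells, and tissue macrophages are its main source. C3 is the protein on which all pathways meet, Cfb supplies the catalytic part of the alternative pathway's convertase, and Cfp (properdin) stabilises that convertase. The C3a receptor C3ar1 and the C5a receptor C5ar1 are the anaphylatoxin receptors, through which split products of C3 and C5 act on myeloid cells.

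The adult library held 6279 barcodes with 70988070 UMIs, of which 5773 cells were kept, and the young library held 7558 barcodes with 84862471 UMIs, of which 7089 were kept. Kept cells had medians of 9659 and 9842 UMIs in adult and young. Before any result, 111 barcodes were found in both libraries, and 38 of them were mCherry-rich in adult, with a median of 78728 UMIs, and without a class in young, with a median of 595.5 UMIs. With 1 library per age no test of age is possible. The 95% intervals below reflect counting error alone. The effect of age cannot be told apart from that of the pool, the sort or the library.

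Cells were placed in classes by their own counts. Cells with at least 10 UMIs of the mCherry construct were called mCherry-rich (475 adult and 423 young cells). Cells with at least 1% of their UMIs from S100a8 and S100a9 and at most 1 Csf1r UMI were called S100a8/S100a9-high (189 adult and 115 young cells). All others with a UMI of Csf1r, the receptor that monocytes and macrophages need for survival, were called Csf1r cells (4364 adult and 5526 young cells). Csf1r cells were split by Ly6c2, a gene of inflammatory monocytes, and Mrc1, the mannose receptor of many tissue macrophages. Ly6c2+ Mrc1- cells numbered 2855 in adult and 4707 in young, Ly6c2- Mrc1- cells 644 in adult and 433 in young, and Mrc1+ cells of either Ly6c2 state 865 in adult and 386 in young.

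Other markers were read here for Csf1r cells and S100a8/S100a9-high cells. Fibroblast and dendritic cell markers of the Ly6c2 classes and macrophage markers of mCherry-rich cells are given below. The labels of the other classes were not checked further. In Csf1r cells all 6 macrophage markers were detected, at 8675 summed UMIs per 1000000 (CPM) in adult and 9763 CPM in young, and all 5 monocyte markers, at 4299 CPM in adult and 4617 CPM in young. The same 6 macrophage markers were also detected in S100a8/S100a9-high cells, at 1891 CPM in adult and 2650 CPM in young, so their level and not their detection differed. The neutrophil list holds S100a8 and S100a9, which chose the S100a8/S100a9-high cells, so its sum is no check. Its 6 other genes were all detected there, among them the chemokine receptor gene Cxcr2 at 304 CPM in adult and 428 CPM in young, against 2.05 CPM in adult and 0.903 CPM in young Csf1r cells. Retnlg stood at 1403 CPM in adult and 655 CPM in young S100a8/S100a9-high cells, against 0.455 CPM in adult and 0.279 CPM in young Csf1r cells. The T cell markers summed to 16 CPM in adult and 16.8 CPM in young Csf1r cells. A list of 5 markers of alternatively activated macrophages differed most with age, at 1158 CPM in adult and 54.3 CPM in young Csf1r cells. Its gene Cd163 was at 0 in young, and among adult Csf1r cells it was detected only in the Ly6c2+ Mrc1- class. The part of this list in the results below was not tested.

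The C1q genes lie next to each other on chromosome 4 in the order C1qb, C1qc and C1qa, all on the minus strand, within 18675 bases (mm10, GENCODE M21). C1qb is at 136880129 to 136886187, C1qc at 136889804 to 136893065 and C1qa at 136895917 to 136898803. Of the 8 members, 6 had a promoter sequence in RefSeq (GRCm38.p6, the assembly behind mm10). The sequences of C1qb and C1qc are shown because these neighbours rose and fell together from cell to cell, and that of C3ar1 because it differed most evenly between the ages. Each is the minus strand, 5′ to 3′, ending just before the start. The C1qc and C3ar1 sequences are limited to the bases beyond the GENCODE gene, which begins 151 and 4 bases before the RefSeq start. Capitals mark matches, on either strand, to GAGGAA, the core bound by PU.1-type ETS factors, or to TGCTGA, a site for MAF-type factors.
C1qb, chr4:136886201-136886450: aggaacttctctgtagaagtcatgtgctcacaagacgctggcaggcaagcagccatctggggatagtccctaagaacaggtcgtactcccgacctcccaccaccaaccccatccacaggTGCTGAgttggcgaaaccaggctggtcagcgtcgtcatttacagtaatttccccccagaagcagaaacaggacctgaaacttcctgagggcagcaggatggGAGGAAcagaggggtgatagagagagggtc
C1qc, chr4:136893066-136893164: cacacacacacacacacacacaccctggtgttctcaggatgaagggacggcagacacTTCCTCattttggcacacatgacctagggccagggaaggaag
C3ar1, chr6:122856162-122856407: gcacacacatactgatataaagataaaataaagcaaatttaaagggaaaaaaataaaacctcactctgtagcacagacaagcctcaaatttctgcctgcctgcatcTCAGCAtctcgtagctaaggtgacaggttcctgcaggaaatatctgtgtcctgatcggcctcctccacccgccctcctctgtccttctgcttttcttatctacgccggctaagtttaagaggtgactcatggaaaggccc

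C1qb held a GAGGAA 30 bases and a TGCTGA 131 bases before its RefSeq start. C1qc held a GAGGAA on the opposite strand, read as TTCCTC, 193 bases before its RefSeq start. C3ar1 held a TGCTGA on the opposite strand, read as TCAGCA, 144 bases before its start. Over the same 250 bases, C3 and C5ar1 each held 1 TGCTGA and Cfp neither motif. Of 32851 RefSeq promoters, 23.3% held GAGGAA and 16.1% held TGCTGA in 250 bases on either strand, so single matches are common.

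C1q transcripts were abundant in Csf1r cells of both ages. C1qa stood at 1435 CPM in adult (1425 to 1446) and 1531 CPM in young (1522 to 1541), a ratio of adult over young of 0.937 (0.928 to 0.946). C1qb stood at 2377 CPM in adult (2363 to 2391) and 2850 CPM in young (2837 to 2863), a ratio of 0.834 (0.828 to 0.840). C1qc stood at 1273 CPM in adult (1263 to 1284) and 1553 CPM in young (1543 to 1563), a ratio of 0.820 (0.812 to 0.829). All 3 were lower in adult, by less than 1.5-fold. Their sum was 5086 CPM in adult and 5934 CPM in young, a ratio of 0.857 (0.853 to 0.861).

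The sum hides a split among cells, some with hardly any C1q and some with very much. Per cell, the median was 13 C1q UMIs in adult and 32 in young Csf1r cells, while the upper quartile was 86 UMIs in adult. No C1q UMI was found in 13.8% of adult cells (12.8 to 14.9) and 8.09% of young cells (7.38 to 8.84), and 100 or more were found in 21.8% of adult and 26.0% of young cells. All 3 genes were detected together in 51.1% of adult and 58.8% of young cells. A cut at 20 C1q UMIs per 10000, set after the distribution was seen, lies between the low and the high cells, above the emptiest part of the distribution. Between 10 and 40 per 10000 lay 13.8% of adult and 12.6% of young Csf1r cells, so the cut divides a range and not types. Cells above the cut had medians of 0 mCherry UMIs, 0% S100a8 and S100a9 and 0 Cd3 UMIs in both ages, as did cells below it. They were deeper, with medians of 11985 UMIs in adult and 11297 UMIs in young, against 8986.5 UMIs in adult and 9319.5 UMIs in young below the cut, and the part of depth was not tested.

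**Figure D1:**
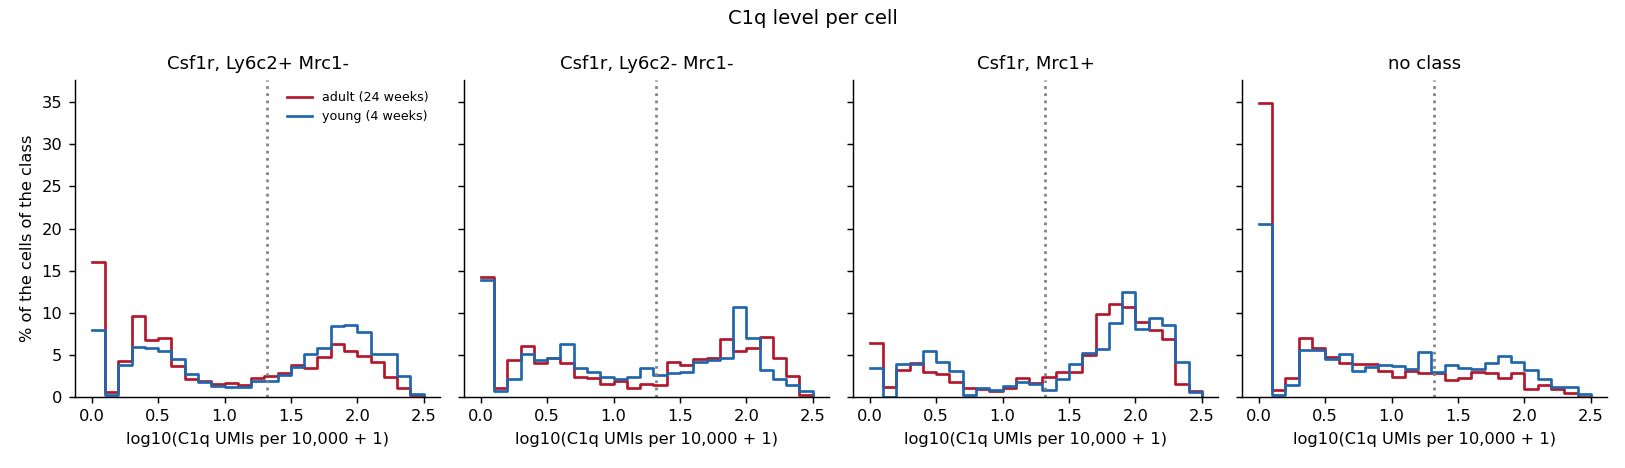
Distribution of C1q per cell (summed UMIs of C1qa, C1qb and C1qc per 10,000 UMIs of the cell, plus 1, on a log10 axis) as a percentage of the cells of each class, for the adult and the young library. The dotted line marks 20 per 10,000: in Ly6c2+ Mrc1- cells 40.7% of adult and 56.1% of young cells lie to its right, and in Mrc1+ cells 69.9% of adult and 69.4% of young cells do.

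Where the age difference in C1q lay, in the number of C1q-high cells or in their level, depended on the class. Above the cut were 47.9% of adult Csf1r cells (46.4 to 49.4) and 56.3% of young Csf1r cells (55.0 to 57.6). Within them C1q stood at 9087 CPM in adult and 9425 CPM in young, a ratio of 0.964, and below the cut at 318 CPM in adult and 352 CPM in young. In Ly6c2+ Mrc1- cells the share above the cut was 40.7% in adult (38.9 to 42.6) and 56.1% in young (54.7 to 57.6), a ratio of 0.726, while the level within the high cells had a ratio of 0.919. In Ly6c2- Mrc1- cells the share was 50.3% in adult (46.4 to 54.2) and 46.2% in young (41.4 to 51.0), with intervals that overlap, and the ratios of share and level were alike, at 1.09 each. In Mrc1+ cells it was 69.9% in adult (66.8 to 73.0) and 69.4% in young (64.6 to 74.0), again with overlapping intervals, and here the level within the high cells was lower in adult, at 9518 CPM against 10590 CPM in young, a ratio of 0.899.

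In CPM, the direction of the C1q difference depended on the Csf1r class. Ly6c2+ Mrc1- cells held 4110 CPM of C1q in adult and 5802 CPM in young, a ratio of 0.708 (0.704 to 0.713). Ly6c2- Mrc1- cells held 5739 CPM in adult and 4929 CPM in young, a ratio of 1.16 (1.14 to 1.19). Mrc1+ cells held 7161 CPM in adult and 7955 CPM in young, a ratio of 0.900 (0.890 to 0.911). The 3 genes moved alike: in Ly6c2+ Mrc1- cells the ratio was 0.759 for C1qa, 0.706 for C1qb and 0.664 for C1qc (0.655 to 0.673), and in Ly6c2- Mrc1- cells it was 1.24 for C1qa, 1.12 for C1qb and 1.17 for C1qc. Fibroblast markers summed to 49.8 CPM in adult and 2.28 CPM in young Ly6c2- Mrc1- cells, where Col1a1, Col1a2 and Pdgfra were at 0 in young, and to 3.05 CPM in adult and 1.59 CPM in young Ly6c2+ Mrc1- cells. Dendritic cell markers summed to 49.3 CPM in adult and 58.2 CPM in young Ly6c2- Mrc1- cells. In Ly6c2+ Mrc1- cells they summed to 16.3 CPM in adult and 17.1 CPM in young. The part of either list in the result was not tested. Ly6c2- Mrc1- cells had medians of 9742.5 UMIs in adult and 7995 UMIs in young, and the part of depth in setting the classes was not tested.

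Of the 8 members, 0 were higher and 1, C3ar1, was lower in adult Csf1r cells by the limit used for a call, a 1.5-fold difference with an interval that excludes 1. Of the 6487 genes that reached 10 CPM in either library, 2.48% were higher and 3.41% lower. In Ly6c2+ Mrc1- cells the call was met by C1qc and C3ar1, both lower, against a background of 2.08% higher and 3.41% lower. In Ly6c2- Mrc1- cells it was met by C3ar1 alone, against 3.83% higher and 5.74% lower. In Mrc1+ cells it was met by C3ar1 and Cfb, both lower, against 4.17% higher and 5.56% lower, and in the Ly6c2+ Mrc1+ cells among them by C3ar1 alone, against 4.04% higher and 5.83% lower. The median log2 ratio of the 8 members in Csf1r cells was -0.27, beside -0.040 over all genes tested.

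**Figure D2:**
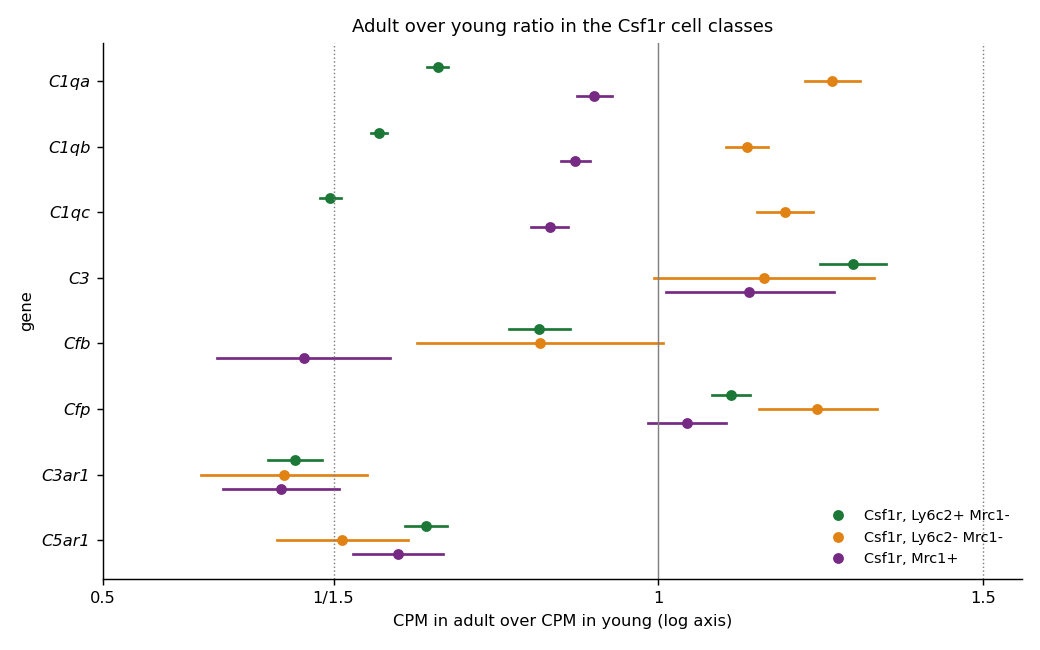
Ratio of the level in adult over the level in young (CPM, log axis) for each gene in the 3 Csf1r classes, as points with 95% counting intervals; the solid line marks equal levels and the dotted lines 1.5-fold. C3ar1 sits between 0.624 and 0.635 in all 3 classes, while the C1q genes lie below 1 in Ly6c2+ Mrc1- and Mrc1+ cells and above 1 in Ly6c2- Mrc1- cells.

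C3ar1 (chromosome 6, 122847138 to 122856161), the receptor for C3a, was the member with the largest and most even age difference in Csf1r cells. It stood at 148 CPM in adult (145 to 152) and 237 CPM in young (234 to 241), a ratio of 0.624 (0.606 to 0.642). The ratio was 0.635 in Ly6c2+ Mrc1- cells (152 CPM in adult and 240 CPM in young), 0.627 in Ly6c2- Mrc1- cells (122 CPM in adult and 195 CPM in young) and 0.624 in Mrc1+ cells (152 CPM in adult and 243 CPM in young). A UMI of it was found in 63.5% of adult and 78.5% of young Csf1r cells, and after thinning each cell to 3000 UMIs in 32.9% of adult and 46.8% of young cells. In cells with Cd3 UMIs, which should lack it, the share was 4.85% in adult (5 of 103 cells at a median of 4139 UMIs) and 0 of 40 in young, well below the shares in Csf1r cells.

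C5ar1 (chromosome 7, 16246743 to 16259540), the receptor for C5a, went the same way by a smaller factor. Csf1r cells held 267 CPM in adult (262 to 271) and 367 CPM in young (362 to 372), a ratio of 0.727 (0.711 to 0.743). The ratios in the classes ran between 0.674 in Ly6c2- Mrc1- cells and 0.748 in Ly6c2+ Mrc1- cells. Thinned shares of Csf1r cells with a UMI were 47.4% in adult and 61.6% in young, and the unthinned shares 76.3% in adult and 86.8% in young, against unthinned shares of 3.88% in adult and 10% in young Cd3 cells. Both receptors were therefore lower in every adult Csf1r class compared, and C3ar1 alone met the call.

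Of the alternative pathway genes, C3 and Cfp were slightly higher and Cfb lower in adult. C3 (chromosome 17, 57203970 to 57228136) stood at 123 CPM in adult (120 to 126) and 103 CPM in young Csf1r cells (101 to 106), a ratio of 1.19 (1.15 to 1.24). Cfp (chromosome X, 20925454 to 20931555) stood at 403 CPM in adult (397 to 408) and 359 CPM in young (354 to 363), a ratio of 1.12 (1.10 to 1.15). Xist, made from the inactive X chromosome, was at 476 CPM in adult and 484 CPM in young Csf1r cells, and 4 Y-linked genes had 0 UMIs in adult and 3 UMIs in young. Cfb (chromosome 17, 34856374 to 34862518) stood at 109 CPM in adult (106 to 112) and 147 CPM in young (144 to 150), a ratio of 0.743 (0.718 to 0.769). None of these reached 1.5-fold in Csf1r cells as a whole, and Cfb did so in Mrc1+ cells, at 70.8 CPM in adult and 110 CPM in young, a ratio of 0.642 (0.577 to 0.716).

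Among Mrc1- cells Cfb was higher in Ly6c2+ than in Ly6c2- cells, and the Ly6c2 classes differed in size between the libraries. Among Mrc1- cells of the adult library Cfb stood at 133 CPM in Ly6c2+ cells and 67.2 CPM in Ly6c2- cells, a ratio of 1.99 (1.80 to 2.20). In the young library it stood at 155 CPM in Ly6c2+ cells and 77.9 CPM in Ly6c2- cells, also a ratio of 1.99 (1.76 to 2.25). Cfb was the only member past 1.5-fold in both libraries in this split, beside 0.353% of 6237 genes higher and 0.593% lower in both. Ly6c2+ Mrc1- cells were 49.5% of kept adult cells and 66.4% of kept young cells. Within Ly6c2+ Mrc1- cells the ratio of adult over young for Cfb was 0.862 (0.830 to 0.895), and within Ly6c2- Mrc1- cells 0.862 (0.740 to 1.01). Within Mrc1+ cells it was 0.642 (0.577 to 0.716). The log2 ratio in all Csf1r cells was -0.41, and -0.34 with the classes weighted equally. The part of class size was not tested further.

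For C1q the Ly6c2 split ran in opposite directions in the libraries. In adult Mrc1- cells C1q was lower in Ly6c2+ cells, at 4110 CPM, than in Ly6c2- cells, at 5739 CPM, a ratio of 0.716 (0.708 to 0.724). In young it was higher in Ly6c2+ cells, at 5802 CPM, than in Ly6c2- cells, at 4929 CPM, a ratio of 1.18 (1.16 to 1.20). The young direction turned when cells were thinned to 3000 UMIs before the split, with a log2 ratio of -0.16, while the adult one stayed, at -0.64. In young, Ly6c2+ Mrc1- cells had a median of 10361 UMIs and Ly6c2- Mrc1- cells one of 7995 UMIs.

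Mrc1+ cells held more C1q than Mrc1- cells in both libraries. Among Ly6c2+ cells C1q stood at 6532 CPM in Mrc1+ and 4110 CPM in Mrc1- cells of the adult library, a ratio of 1.59 (1.57 to 1.61), and at 7641 CPM in Mrc1+ and 5802 CPM in Mrc1- cells of the young library, a ratio of 1.32 (1.30 to 1.33). Among Ly6c2- cells it stood at 9118 CPM in Mrc1+ and 5739 CPM in Mrc1- cells in adult, a ratio of 1.59 (1.56 to 1.61), and at 10569 CPM in Mrc1+ and 4929 CPM in Mrc1- cells in young, where the 48 Mrc1+ cells make the level uncertain beyond counting error. C1qa led this rise in Ly6c2+ cells, with ratios of 1.72 in adult and 1.51 in young, and was past 1.5-fold in both, beside 0.64% of 6247 genes higher and 0.368% lower in both. Among Ly6c2- cells all 3 C1q genes were past it in both, beside 0.89% of 6404 genes higher and 0.562% lower. With cells thinned before the split, the log2 ratio of summed C1q among Ly6c2- cells was 0.36 in adult and 0.25 in young, both under 1.5-fold. Cfb was lower in Mrc1+ than in Mrc1- Ly6c2+ cells, with ratios of 0.582 in adult and 0.741 in young. C3ar1 differed little in this split, with ratios of 0.996 in adult (0.937 to 1.06) and 1.03 in young (0.965 to 1.09).

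**Figure D3:**
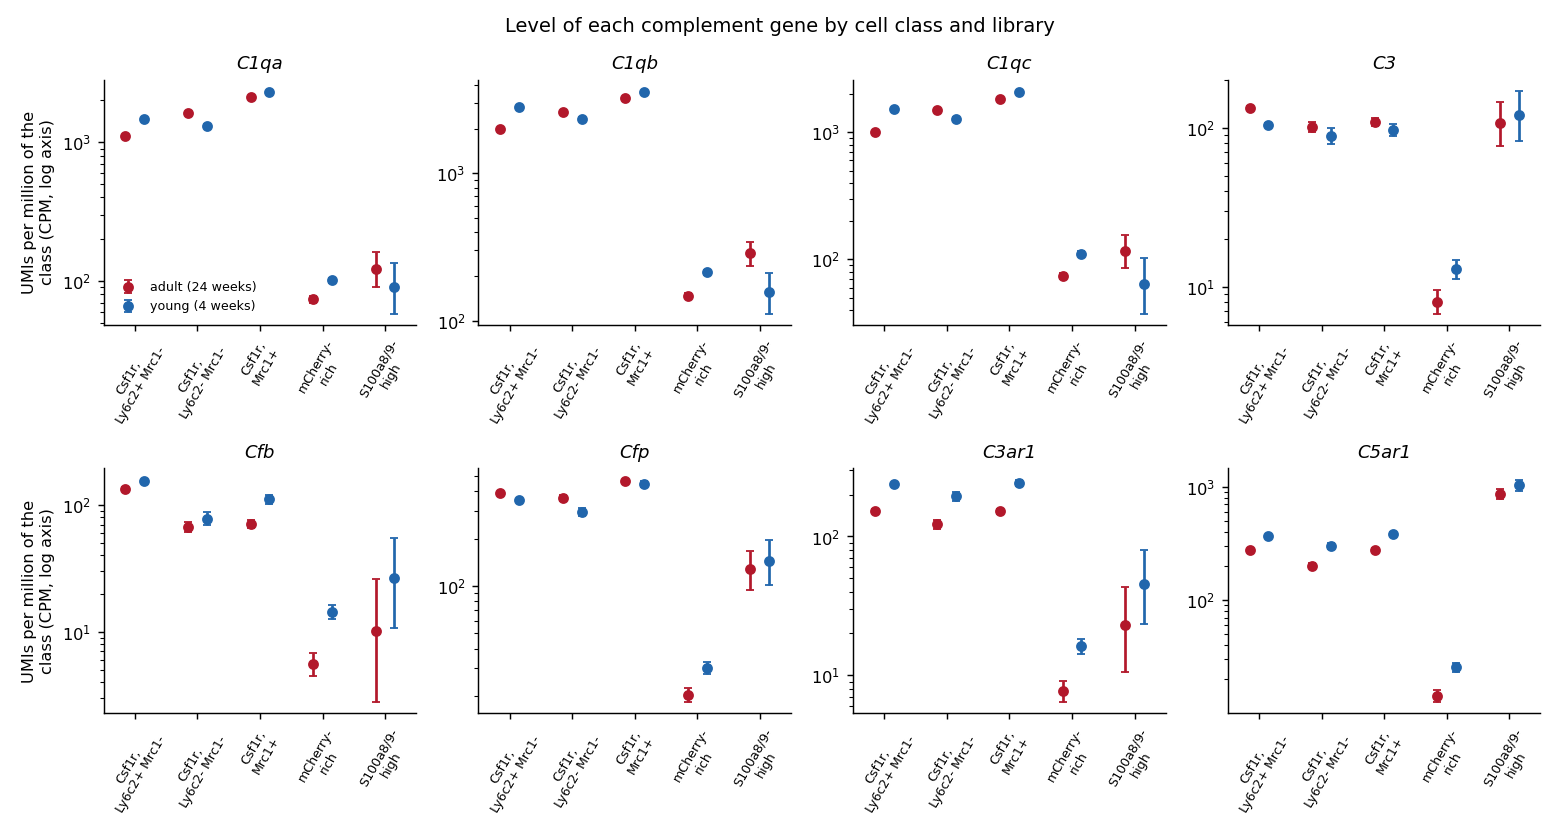
Level of each gene (CPM, log axis) in 3 Csf1r classes, mCherry-rich cells and S100a8/S100a9-high cells, with 95% counting intervals, adult left of young. The C1q genes, Cfb, Cfp and C3ar1 are highest in Csf1r cells, C5ar1 is highest in S100a8/S100a9-high cells at 865 CPM in adult and 1030 CPM in young, and C3 is about level between them.

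Scaled to CPM, S100a8/S100a9-high cells held more C5ar1 and far less C1q than Csf1r cells, while C3 did not differ beyond counting error. C5ar1 stood at 865 CPM in S100a8/S100a9-high and 267 CPM in Csf1r cells of the adult library, a ratio of 3.24 (2.90 to 3.61), and at 1030 CPM in S100a8/S100a9-high and 367 CPM in Csf1r cells of the young library, a ratio of 2.81 (2.48 to 3.16). C3 stood at 107 CPM in S100a8/S100a9-high and 123 CPM in Csf1r cells in adult, a ratio of 0.871 (0.627 to 1.18), and at 121 CPM in S100a8/S100a9-high and 103 CPM in Csf1r cells in young, a ratio of 1.17 (0.803 to 1.66). C1q stood at 526 CPM in S100a8/S100a9-high cells in adult and 310 CPM in young, ratios to Csf1r cells of 0.103 and 0.0523. Only C5ar1 was higher in both libraries among the members and all but C3 and C5ar1 were lower, beside 11.3% of 6463 genes higher and 27.6% lower in both. These cells were shallow, with medians of 1900 UMIs in adult and 2134 UMIs in young. Per cell they held fewer C5ar1 UMIs than Csf1r cells, at 1.79 against 2.95 in adult and 2.37 against 4.05 in young.

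Between ages, S100a8/S100a9-high cells gave few counts. C1qb was higher in adult, at 286 CPM against 155 CPM in young, a ratio of 1.84 (1.28 to 2.70), and C1qc at 117 CPM in adult and 64.4 CPM in young, a ratio of 1.82 (1.03 to 3.39), while 3.06% of all 5752 genes were called higher and 5.86% lower. In adult, 5 cells held 47.6% of the C1q UMIs of this class. Without the 6% of cells with the highest doublet scores both calls were lost, with log2 ratios of -0.0083 for C1qb and 0.31 for C1qc, and 0.050 for summed C1q, against 0.75 with them. C5ar1 had a ratio of 0.840 (0.714 to 0.989).

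C1q was also used as a tracer of free RNA, that is, RNA of burst macrophages caught in droplets of other cells. If a class held members only as free RNA, each would stand at the same percentage of its UMIs per cell in Csf1r cells. Doublets with Csf1r cells would give the same pattern, so the tracer cannot tell them from free RNA. The proportions of the C1q genes themselves show how closely such a percentage can be read. C1qa, C1qb and C1qc made up 28.2%, 46.7% and 25% of C1q UMIs in adult Csf1r cells, and 25.8%, 48.0% and 26.2% in young Csf1r cells. In mCherry-rich cells they made up 25%, 49.8% and 25.1% in adult and 23.8%, 50% and 26.2% in young. C1qa alone thus stood at 0.887 times the percentage of summed C1q there in adult (0.839 to 0.938) and at 0.924 times in young (0.881 to 0.969), so departures of that size occur among the C1q genes too. Intervals of these multiples take the C1q percentage as exact and are therefore too narrow. In young S100a8/S100a9-high cells, for example, that percentage rests on 82 C1q UMIs.

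Per cell, S100a8/S100a9-high cells held 1.94% of the C1q UMIs of Csf1r cells in adult (1.68 to 2.22) and 1.09% in young (0.867 to 1.35). C5ar1 stood 31.4 times above that percentage in adult (28.1 to 35.0) and 53.6 times in young (47.4 to 60.5). C3 stood 8.43 times above it in adult (6.07 to 11.4) and 22.5 times in young (15.3 to 31.7), and Cfp 3.07 times in adult (2.27 to 4.04) and 7.67 times in young (5.43 to 10.5). Lyz2, the lysozyme gene of myeloid cells and no complement gene, stood 2.23 times above it in adult and 5.53 times in young. C3ar1, at 1.5 in adult (0.686 to 2.85), and Cfb, at 0.907 in adult (0.247 to 2.32), were not distinguishable from the tracer there, and stood at 3.66 (1.89 to 6.39) and 3.46 (1.39 to 7.12) in young. C3ar1 was seen as 0.0476 UMIs per cell in adult and 0.104 in young, so its level in these cells rests on few UMIs.

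mCherry-rich cells held 18.8% of the C1q UMIs of Csf1r cells per cell in adult (18.3 to 19.3) and 26.4% in young (25.8 to 27). In adult the other 5 members stood between 0.868 and 1.13 times that percentage, Cfp being lowest (0.779 to 0.966), a departure like that of C1qa. In young C3 stood at 1.75 times (1.52 to 2), Cfb at 1.37 times (1.21 to 1.56) and Cfp at 1.17 times (1.07 to 1.28), while C3ar1, at 0.951, and C5ar1, at 0.972, had intervals that include 1. Macrophage genes outside complement departed from C1q too: Lyz2 stood at 0.892 times in adult and 1.20 times in young, and Csf1r at 1.14 times in adult and 1.37 times in young. Of the C1q UMIs of all mCherry-rich cells, 5 cells held 24.2% in adult and 20.7% in young. The 302 adult and 226 young mCherry-rich cells without a Csf1r UMI held 4.88% of the C1q UMIs in adult and 5.90% in young. In them the other 5 members had intervals that include 1, except C3 in young at 1.58 times (1.01 to 2.36), where Apoe stood at 1.64 times (1.47 to 1.82). Counting error of C1q itself spans 0.935 to 1.07 times in these young cells, so the C3 value is not set apart from 1.

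**Figure D4:**
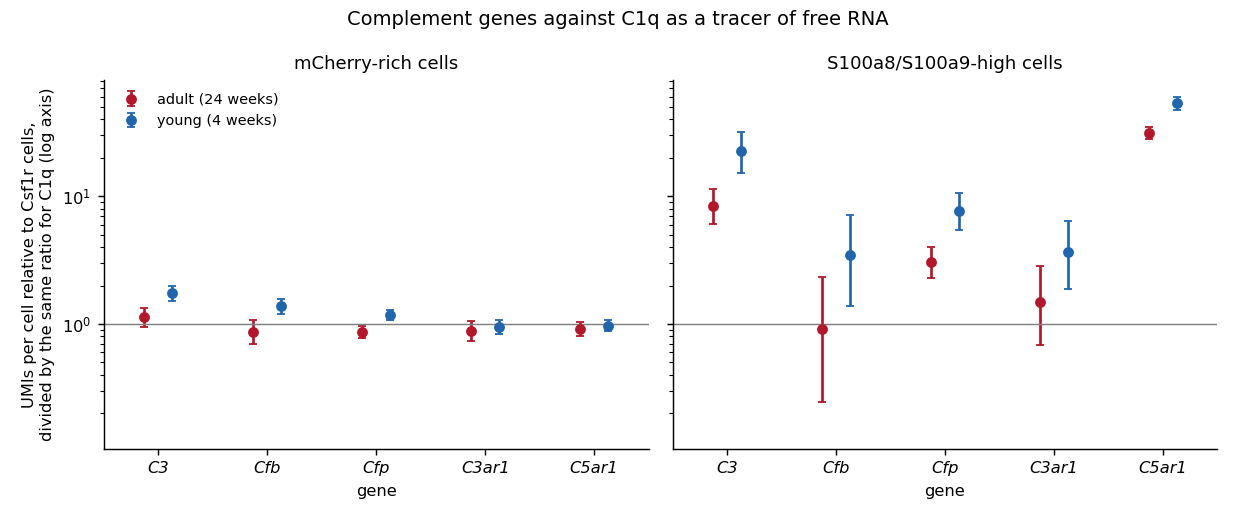
UMIs per cell relative to Csf1r cells, divided by the same ratio for C1q (log axis), for 5 genes in mCherry-rich and in S100a8/S100a9-high cells, with 95% counting intervals, adult left of young. The intervals take the C1q ratio as exact. A value of 1 means the same dilution as C1q, which free RNA and doublets with Csf1r cells would both give. The mCherry-rich cells lie near it, with C3 in young highest at 1.75. In S100a8/S100a9-high cells C5ar1 lies at 31.4 in adult and 53.6 in young.

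In mCherry-rich cells 4 of the 8 members, C3, C3ar1, C5ar1 and Cfb, were lower in adult and 0 higher, beside 4.33% of 6645 genes lower and 0.933% higher. Their levels were low, for example 7.64 CPM of C3ar1 in adult and 16.1 CPM in young, a ratio of 0.473 (0.381 to 0.585), and 5.52 CPM of Cfb in adult and 14.4 CPM in young, a ratio of 0.384 (0.299 to 0.488). Without the barcodes found in both libraries, the log2 ratio of summed C1q in mCherry-rich cells was -0.39, against -0.51 with them. After thinning, 2 of the 4 calls were lost: the log2 ratio was 0.080 for C3ar1, a change of sign, and -0.0073 for C3. The 6 macrophage markers moved with them, at 453 CPM in adult and 822 CPM in young, and their part was not tested. Among mCherry-rich cells without Csf1r UMIs only the C1q genes reached 10 CPM and 0 of 3 were called, beside 2.31% of 6073 genes higher and 2.75% lower. Their C1q stood at 91.7 CPM in adult and 127 CPM in young, a ratio of 0.722 (0.655 to 0.794).

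In cells with at least 2 Cd3 UMIs, a class with 103 adult and 40 young cells, C1q stood at 6.69% of the UMIs per Csf1r cell in adult and 1.41% in young. In adult, 5 cells held 80.4% of it. C3 was found in 0 of 103 adult cells, where 3 UMIs would be 5.53 CPM, and as 1 UMI in young cells.

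Within Csf1r cells the mCherry count went with C1q. Adult Csf1r cells with 0, 1 to 2 and 3 to 9 mCherry UMIs held 4943, 5656 and 5861 CPM of C1q, and young ones 5809, 6453 and 6538 CPM. Median depth also differed among these groups, at 9963, 10967 and 11874 UMIs in adult and at 10233.5, 11017 and 9567 UMIs in young, and the last group had 32 adult and 41 young cells. C3ar1 stood at 149, 142 and 167 CPM in adult and at 236, 241 and 269 CPM in young. C5ar1 ran the other way, at 270, 254 and 226 CPM in adult and at 371, 350 and 322 CPM in young.

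Ordering the Csf1r cells of each library by C1q and cutting them into 5 equal groups showed which members went with it. C3 was lowest where C1q was highest: from the lowest to the highest group it stood at 143, 154, 143, 109 and 83.9 CPM in adult and at 114, 123, 114, 90.2 and 82.0 CPM in young. Cfb stood at 127 CPM in the lowest and 99.2 CPM in the highest group in adult, and at 160 and 158 CPM in young, with its lowest level, 131 CPM, in the middle group. C3ar1 was at 133 CPM in the lowest and 182 CPM in the highest adult group, and at 234 and 256 CPM in young.

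The age differences of the receptors held along this order, with C5ar1 between 255 and 279 CPM in all adult groups and between 335 and 387 CPM in all young groups. Ms4a7 and Apoe, both macrophage markers, were highest in the highest group. Ms4a7 stood at 159 CPM in the lowest and 578 CPM in the highest group in adult, and at 192 and 417 CPM in young. The lipoprotein gene Apoe stood at 911 CPM in the lowest and 3171 CPM in the highest adult group, and at 1190 and 2179 CPM in young. Ly6c2 fell along it, to 641 CPM in the highest adult group and 1430 CPM in the highest young group, against 1546 CPM in the lowest adult and 2114 CPM in the lowest young group. From the lowest to the highest group, Mrc1 was at 22.8, 20.6, 32.1, 61.3 and 59.4 CPM in adult and at 8.18, 6.98, 9.40, 12 and 14.3 CPM in young. Of the cells above the C1q cut, 605 of 2092 in adult and 268 of 3110 in young had a Mrc1 UMI. Among all Csf1r cells, 865 of 4364 in adult and 386 of 5526 in young had one, and the cells above the cut were deeper.

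**Figure D5:**
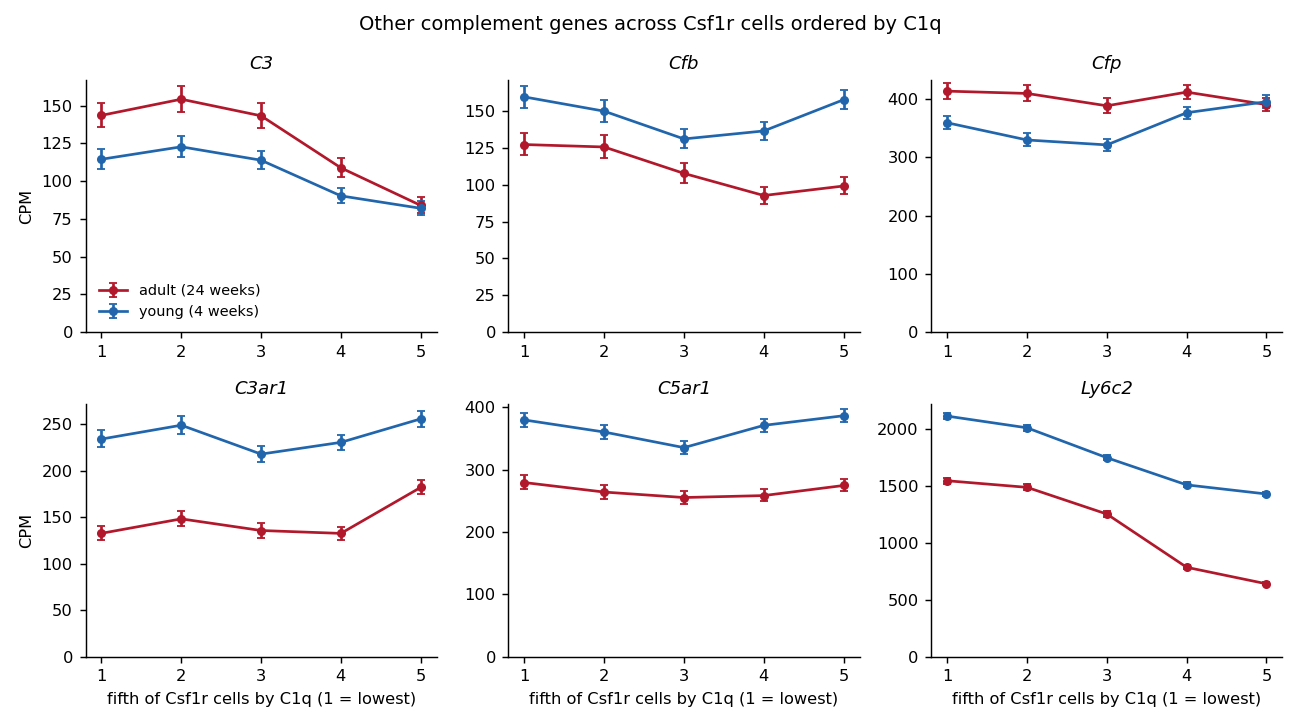
Level (CPM) of 5 complement genes and of Ly6c2 in Csf1r cells ordered by their C1q level and cut into 5 equal groups (1 = lowest), with 95% counting intervals, for the adult and the young library. C3 and Ly6c2 are lowest in the highest C1q group in both libraries, C3 at 83.9 CPM in adult and 82.0 CPM in young, and C3ar1 and C5ar1 stay lower in adult in every group.

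The genes most like each member were sought by the correlation of log-scaled counts across Csf1r cells, over 2231 genes, with the mean of both libraries (4364 adult and 5526 young cells). These cells share a library and a spread of depth, so the values are descriptions. The C1q genes went together, with r of 0.85 to 0.92 in adult and 0.82 to 0.91 in young between any 2 of them. The genes most like C1q were Cd72, Ly86, Ckb, Lgmn and Ms4a7, with mean r between 0.28 for Cd72 and 0.25 for Ms4a7, and the least like were F10, Plac8 and Slpi, with mean r of -0.26, -0.24 and -0.24. C3 was most like Ly6i, Sod2 and Ccl5 (mean r 0.30, 0.25 and 0.23), and Cfb most like Ms4a4c, B2m and Ly6c2 (0.31, 0.29 and 0.28).

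C3ar1 was most like Lgmn and Ctsb, which encode lysosomal proteases, and Fcgr1, an Fc receptor (mean r 0.34, 0.34 and 0.31). C5ar1 was most like the scavenger receptor Msr1, Fcgr1 and Adam8 (0.33, 0.28 and 0.27), and Cfp most like Lyz2, Ctsc and Cst3 (0.26, 0.25 and 0.22). Among the members outside C1q the highest pairs were C3ar1 with C5ar1, at r of 0.27 in adult and 0.22 in young, and C3 with Cfb, at 0.21 in adult and 0.17 in young. In sparse counts correlations of this size are weak.

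A list of 45 further complement genes gives the setting, of which 44 were in the files. In Csf1r cells 9 reached 10 CPM, of which 2 were higher and 1 lower in adult, beside 2.48% of all genes higher and 3.41% lower, and their median log2 ratio was -0.16, beside -0.040 over all genes. Itgax, the alpha chain of complement receptor 4, stood at 86.8 CPM in adult and 54.5 CPM in young, a ratio of 1.59 (1.52 to 1.67). C1qbp, a mitochondrial protein that can bind C1q, stood at 75.5 CPM in adult and 47.8 CPM in young, a ratio of 1.58 (1.5 to 1.66). Cd93, a surface lectin once taken for a C1q receptor, stood at 26.3 CPM in adult and 44.6 CPM in young, a ratio of 0.589 (0.551 to 0.630).

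The other 6 measured genes stayed within 1.5-fold. They were Itgam and Itgb2, the chains of complement receptor 3, with ratios of 1.11 and 0.847, Lrp1 at 0.893, Calr at 1.12, the membrane regulator Cr1l at 0.867, and the classical pathway gene C4b, at 0.777 with only 10.2 CPM in adult and 13.1 CPM in young. None of 9 lectin pathway genes, 3 other alternative pathway genes and 9 terminal pathway genes reached 10 CPM in Csf1r cells. The C1q partner C1ra was at 7.64 CPM in adult and 8.76 CPM in young and C1s1 at 0.890 CPM in adult and 0.460 CPM in young. The terminal component C5, gene Hc, was seen as 2 UMIs in adult and 0 in young, and Vsig4, a complement receptor of tissue macrophages, as 0 in both. C5ar2, the second C5a receptor, reached 10 CPM only in S100a8/S100a9-high cells, at 15.3 CPM in adult and 18.9 CPM in young from 6 and 5 UMIs.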

How the data were processed

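The deposited files hold raw UMI counts for each gene in each barcode, made by the authors with Cell Ranger 3.0.2 and the build mm10, per the submitters' processing notes. Barcodes were kept from 200 detected genes upward and up to a mitochondrial share of 10%. Scrublet (scanpy 1.11.5) called 1 doublet per library, which is too few to have worked, so doublets should be taken as present. Counts were summed per class and library and scaled to CPM. Intervals (95%) are exact Poisson for levels, Clopper-Pearson for shares and conditional binomial for ratios, computed with scipy 1.17.1. A pseudocount of 5 CPM was used for log2 ratios, and ratios were taken only for classes of at least 50 cells in both libraries, except in the Mrc1 split. UMIs of 3′ ends are not scaled by gene length. Ratio intervals were tested on simulated counts with counting noise alone, which cannot show how they behave under spread between cells, doublets or free RNA. Likeness was tested on simulated data with planted genes. Members and gene lists were chosen with earlier results of these data known. Named were all members, listed complement genes at 10 CPM or more, class markers, and by likeness the 5 highest and 3 lowest genes for C1q and the 3 highest for other members. Genes named below 10 CPM were chosen after their values were seen. Alternatives were other gates, filters, scalings, weights and thinning to 3000 UMIs.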

Additional observations from a re-analysis of the deposited data

Results flagged for a closer look

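The C1q genes differed between the ages in opposite directions in classes that share no cells. The ratio of adult over young for C1qa was 1.24 in Ly6c2- Mrc1- cells, 0.759 in Ly6c2+ Mrc1- cells and 0.923 in Mrc1+ cells. For C1qb it was 1.12, 0.706 and 0.902, and for C1qc 1.17, 0.664 and 0.873, in the same order of classes. The counting intervals exclude 1 in each case, but with 1 library per age the difference between classes was not tested. Classes were set at full depth, where Ly6c2- Mrc1- cells had medians of 9742.5 UMIs in adult and 7995 UMIs in young. Age ratios with classes set after thinning were not computed. Within young, the log2 ratio of summed C1q in Ly6c2+ over Ly6c2- Mrc1- cells was 0.23. It was -0.16 with cells thinned before the split and -0.0045 with the split at 2 UMIs. Within adult it was -0.48, and -0.64 and -0.54 under the same changes. In Ly6c2- Mrc1- cells 5 cells held 6.36% of the C1q UMIs in adult and 10.7% in young, a spread that counting intervals leave out.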

How the results depend on the processing

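No paired analysis was possible because each age has 1 library, and no library could be left out. In Csf1r cells the log2 ratios of adult over young of all 8 members and of summed C1q kept their sign under all 14 alternatives, C3ar1 between -0.68 and -0.59. Values that moved beyond counting error were, for C1qa, C1qb, C1qc and summed C1q: -0.074, -0.23, -0.25 and -0.19 with Csf1r cells at 2 UMIs; -0.18, -0.36, -0.40 and -0.33 in thinned cells; -0.067, -0.23, -0.26 and -0.20 with scaling by the median ratio; and -0.067, -0.16, -0.19 and -0.14 with the classes weighted equally, an alternative added after the data were seen. Thinning also gave 0.30 for C3, -0.59 for C3ar1 and -0.27 for Cfb, and equal class weights -0.34 for Cfb. With each cell weighing the same the values were -0.17 for C1qa, -0.35 for C1qb, -0.36 for C1qc, -0.31 for summed C1q, -0.62 for C3ar1, -0.41 for C5ar1 and -0.35 for Cfb. A pair of called ratios changed sign: C1qb in S100a8/S100a9-high cells without the highest doublet scores, at -0.0083, and C3ar1 in mCherry-rich cells after thinning, at 0.080. The cause was not tested. Leaving out the 111 shared barcodes moved none of the 9 ratios in Csf1r cells beyond counting error, but moved 8 other results, among them C1qa in mCherry-rich cells to -0.30 from -0.43 and summed C1q there to -0.39 from -0.51.
The limits set the counts. In adult Csf1r cells 161 genes were higher and 221 lower, against 43 and 101 with a minimum of 50 CPM, 856 and 716 with no minimum, and 49 and 38 at 2-fold. For the listed complement genes 2 were higher and 1 lower, against 7 and 4 with no minimum, 0 and 0 at 2-fold, and 0 lower at 50 CPM. Against all kept cells as the base, C1q in mCherry-rich cells was 23.7% in adult and 31.6% in young and in adult S100a8/S100a9-high cells 2.44%, and mCherry-rich cells with 0 Csf1r UMIs gave 4.88% in adult and 5.90% in young. Log2 ratios of summed C1q in the splits are given for Ly6c2+ over Ly6c2-, Mrc1+ over Mrc1- in Ly6c2- cells, and the same in Ly6c2+ cells. Thinning before the split gave -0.64, 0.36 and 0.76 in adult and -0.16, 0.25 and 0.48 in young. Splitting at 2 UMIs gave -0.54, 0.51 and 0.77 in adult and -0.0045, 0.75 and 0.45 in young. In cells with 0 mCherry UMIs the first 2 were -0.41 and 0.72 in adult, and the last was 0.42 in young. Subtracting free RNA could be computed for 5 of the ratios in mCherry-rich and S100a8/S100a9-high cells. Cells with a UMI and low levels depend on depth, which limits S100a8/S100a9-high and Cd3 cells most.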

Other observations

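Cells that fell in no class, 642 in adult and 985 in young, also held C1q. Of them 20.6% in adult (17.5 to 23.9) and 34.1% in young (31.2 to 37.2) lay above the cut of 20 C1q UMIs per 10000, with levels of 7539 CPM in adult and 8313 CPM in young. The cells above the cut had medians of 5150 UMIs in adult and 6233.5 UMIs in young, against 11985 UMIs in adult and 11297 UMIs in young for Csf1r cells above it. Cells in no class have 0 Csf1r UMIs by the way the classes were set. Of the 111 barcodes found in both libraries, 52 fell in no class in young and 6 in adult.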
